A study of Mus musculus with 6 samples.

Results

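Genomic imprinting was examined at 7 maternally methylated germline differentially methylated regions (DMRs) on mouse chromosomes 6 and 7. They belong to Peg10 and Sgce, Mest, Nap1l5, Peg3, Snrpn, Inpp5f and Kcnq1ot1. The cytosines were chosen by position: every cytosine listed inside the mm9 window of a DMR was taken, whatever its methylation level. These windows held 95 of the 750119 cytosines listed in any library, and 51 of them were listed in all 6 libraries. The 51 lay in 6 of the 7 windows.

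The libraries were made by reduced representation bisulfite sequencing (RRBS) of E14 mouse embryonic stem cells. The cells carried short hairpin RNAs (shRNAs) against Dnmt1, against Dnmt3a, against Dnmt3b, against Dnmt3a and Dnmt3b together or against Tet1 and Tet2 together, or a control shRNA. RRBS cuts DNA at CCGG with the enzyme MspI and reads the ends of short fragments, and bisulfite leaves 5-methylcytosine and 5-hydroxymethylcytosine reading as cytosine. There was 1 library per group, so each difference below is between 2 libraries, with no replicate error and no p-value. How far each target was depleted, and whether marker genes of embryonic stem cells were expressed, was not measured in these libraries. The Dnmt1 library was the shortest, with 445016 cytosines, and the Tet1 and Tet2 library the longest, with 604227; the number of reads behind a level is unknown. Each SD below describes the cytosines of a window, which share a library and often the same reads.

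A maternal germline DMR gains its methylation in the oocyte, and after fertilisation the maternal copy keeps it while the paternal copy stays free of it. DNMT1 copies methylation onto newly replicated DNA, DNMT3A and DNMT3B methylate DNA de novo, and TET1 and TET2 oxidise 5-methylcytosine. The zinc finger protein ZFP57 binds the methylated hexamer TGCCGC and helps to keep DNMT1 activity at imprinted regions. A cell with an intact imprint is therefore read at an intermediate level. The reads do not separate the parental alleles, so a loss in some cells and a partial loss in all cells cannot be told apart.

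The genes differ in function. Peg10 is derived from a retrotransposon and is needed for the placenta, and Sgce, which encodes a sarcoglycan, starts close to it in the opposite direction. Mest encodes a hydrolase-like protein, Nap1l5 a nucleosome assembly protein family member inside an intron of Herc3, and Peg3 a zinc finger protein. Snrpn encodes a splicing protein, and its DMR belongs to the imprinting control region of the Prader-Willi and Angelman domain. The Inpp5f DMR lies at an internal promoter of a phosphatase gene. Kcnq1ot1 is a long noncoding RNA that starts at its DMR inside Kcnq1 and silences neighbouring genes on the paternal copy.

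The sequence under the measured cytosines could be shown for Snrpn. RefSeq promoters (build GRCm38.p6, from 250 bases before to 50 bases after the gene start) were found for 6 of the 8 genes. All promoters of that table were compared with the 5 bases of context and the spacing of the cytosines listed in the windows. The promoter shared by Snrpn and Snurf (chr7:60005150-60005449 in GRCm38.p6, minus strand) matched all 3 cytosines that this placement puts inside it, with no mismatch. No other promoter matched as many, but the planned minimum was 5, and 3 was accepted after the data were seen. In the first line below, capitals mark the 3 measured cytosines with their 5-base contexts. In the lines for Nap1l5 (chr6:58907077-58907376, minus strand) and Mest (chr6:30737800-30738099, plus strand), capitals mark TGCCGC or its reverse complement. Those are shown for the ZFP57 hexamer, and none of their cytosines was placed in the files.
Snrpn: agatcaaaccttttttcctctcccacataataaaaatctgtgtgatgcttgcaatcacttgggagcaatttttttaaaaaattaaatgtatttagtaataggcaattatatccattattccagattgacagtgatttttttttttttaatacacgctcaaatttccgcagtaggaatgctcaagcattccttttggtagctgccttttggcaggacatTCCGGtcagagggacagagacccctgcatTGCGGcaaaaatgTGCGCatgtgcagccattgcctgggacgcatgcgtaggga
Nap1l5: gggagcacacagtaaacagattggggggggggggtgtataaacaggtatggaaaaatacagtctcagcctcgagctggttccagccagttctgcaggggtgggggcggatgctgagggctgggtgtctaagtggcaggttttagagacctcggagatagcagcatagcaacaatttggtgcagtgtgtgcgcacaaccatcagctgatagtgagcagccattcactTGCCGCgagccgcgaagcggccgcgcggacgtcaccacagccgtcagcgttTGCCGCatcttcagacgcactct
Mest: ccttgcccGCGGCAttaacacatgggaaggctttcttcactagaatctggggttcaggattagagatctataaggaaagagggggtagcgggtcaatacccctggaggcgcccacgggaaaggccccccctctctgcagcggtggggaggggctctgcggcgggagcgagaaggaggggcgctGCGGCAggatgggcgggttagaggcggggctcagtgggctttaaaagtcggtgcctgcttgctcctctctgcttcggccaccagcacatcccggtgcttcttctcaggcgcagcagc

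TGCCGC, searched on both strands, was present in 11.7% of 32544 distinct RefSeq mouse promoters of this length. Each of the Nap1l5 and Mest promoters above held 2 copies and the Snrpn promoter 1 copy. Its reverse complement, GCGGCA, overlaps the middle measured cytosine of the Snrpn promoter, 1 base before the gene start. The Peg3, Kcnq1ot1 and Inpp5f promoters in the table held none. None was held either by a further Mest promoter (chr6:30733256-30733555) or by the other Snrpn promoters, whose intervals begin at chr7:60450128, 60140176 and 60047929. Another Mest promoter (chr6:30737803-30738102), which overlaps the one above, held 2 copies. Only these promoters were searched, not the full DMR windows. Whether the Inpp5f promoter searched is the internal one at its DMR was not established. CCGG, the MspI site, occurs in 53% of the promoters and was absent from the Nap1l5, Peg3 and Kcnq1ot1 promoters. It was also absent from the Mest and Snrpn promoters that held no TGCCGC.

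At Snrpn the cytosine inside the hexamer (position 67150086, mm9, minus strand) read 7.7% after Dnmt1 knockdown, 35.1% after Dnmt3a knockdown, 36.3% after Dnmt3b knockdown, 37.2% after the double Dnmt3 knockdown, 24.8% after Tet1 and Tet2 knockdown and 37.6% in control. The one at the MspI site, 30 bases before the start (67150115), read 6.8%, 34.6%, 35.3%, 40%, 27.8% and 37.9% in the same order of libraries. The one 12 bases past the start (67150073) read 7.6%, 33.4%, 34.5%, 37.1%, 26.5% and 36.7%. The 3 neighbours thus kept together in every library. The Dnmt1 library was far below the others, and the Tet1 and Tet2 library was the next lowest at each of the 3.

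Coverage of the windows was uneven. All 12 shared cytosines of the Peg10 and Sgce window (chromosome 6, 4695000 to 4700500) fell in 136 bp (4697355 to 4697490), with an MspI site at either end. Of the 6001 bp of the Mest window (chromosome 6, 30684000 to 30690000), only 2 shared cytosines in 37 bp were read, both on the plus strand. Nap1l5 (chromosome 6, 58856000 to 58858500) had 17 in 245 bp. On chromosome 7, Snrpn (67147000 to 67151000) had 3 in 43 bp and Inpp5f (135831000 to 135833000) had 6 in 177 bp, all on the minus strand. Kcnq1ot1 (150480500 to 150483000) had 11 in 150 bp. The Peg3 window (6679500 to 6685000) had 1 listed cytosine, read at 50% in the Tet1 and Tet2 library alone, so Peg3 takes no part in the comparisons.

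In the Peg10 and Sgce window the mean level was 23.1% ± 10.8 after Dnmt1 knockdown, 49.65% ± 1.70 after Dnmt3a knockdown, 52.3% ± 7.5 after Dnmt3b knockdown, 60.2% ± 7.3 after the double knockdown, 57.9% ± 8.8 after Tet1 and Tet2 knockdown and 66.3% ± 8.2 in control (SD over 12 cytosines). Control was the highest and Dnmt1 the lowest. Both ends of this MspI fragment were read, and they differed in 5 of the 6 libraries. The minus strand end read 31.0% after Dnmt1 knockdown, 58.3% after Dnmt3b knockdown, 65.9% after the double knockdown, 64.8% after Tet1 and Tet2 knockdown and 72.9% in control. The plus strand end read 12.2%, 44.0%, 52.1%, 48.2% and 57.1% in those libraries. After Dnmt3a knockdown the ends were close, at 48.6% on the minus and 51.1% on the plus strand. The lowest minus strand cytosine stood above the highest plus strand one in the other 5 libraries, but not in the Dnmt3a library.

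Kcnq1ot1 read 11% ± 3.3 after Dnmt1 knockdown, 37.8% ± 3.2 after Dnmt3a knockdown, 36.9% ± 2.5 after Dnmt3b knockdown, 39.0% ± 1.4 after the double knockdown, 38.8% ± 2.6 after Tet1 and Tet2 knockdown and 47.6% ± 3.9 in control (SD over 11 cytosines). The 4 knockdowns other than Dnmt1 lay between 36.9% and 39.0%, and control stood above all of them. Control read 51.8% on the 4 plus strand cytosines and 45.3% on the 7 minus strand ones, and it was the highest library on each strand.

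Nap1l5 read 6.46% ± 7.32 after Dnmt1 knockdown, 31.2% ± 8.9 after Dnmt3a knockdown, 33.2% ± 9.6 after Dnmt3b knockdown, 30.9% ± 8.6 after the double knockdown, 27.5% ± 8.9 after Tet1 and Tet2 knockdown and 31.0% ± 6.4 in control (SD over 17 cytosines). Apart from Dnmt1, no library differed from control by more than this spread. Strand mattered for the direction: on the plus strand Tet1 and Tet2 read 31.8% and control 24.0%, while on the minus strand they read 25.6% and 33.95%. The same turn was seen after Dnmt3a, Dnmt3b and double knockdown. These read 32.1%, 34.7% and 38.0% on the plus strand and 30.8%, 32.6% and 27.9% on the minus strand. Control was thus the lowest library apart from Dnmt1 on the plus strand and the highest on the minus strand. The minus strand cytosines form 2 runs, described here after their values were seen. The 5 between 58856719 and 58856763 read 31.2% to 38.7% after Tet1 and Tet2 knockdown and 33% to 37.7% in control. The 7 between 58856825 and 58856872 read 15.9% to 22.1% after Tet1 and Tet2 knockdown and 27.6% to 37.9% in control. The double knockdown read 35.6% to 38.9% in the first run and 16.7% to 25.6% in the second. Dnmt3b knockdown was split in the same way, at 36.6% to 47.7% and 20.5% to 29.5%. After Dnmt3a knockdown the runs overlapped, at 27.6% to 33.3% and 24.2% to 33.9%. How often runs of neighbouring cytosines differ in this way in other sequence was not counted.

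Inpp5f read 4.13% ± 1.39 after Dnmt1 knockdown, 35.45% ± 1.97 after Dnmt3a knockdown, 34.4% ± 1.4 after Dnmt3b knockdown, 27.1% ± 2.3 after the double knockdown, 25.4% ± 1.9 after Tet1 and Tet2 knockdown and 30.8% ± 2.9 in control (SD over 6 cytosines). Both single Dnmt3 knockdowns stood above control at all 6 cytosines. The double knockdown stood below control at all 6, and Tet1 and Tet2 at 5 of 6. These 6 are on the minus strand, and 7 plus strand cytosines were listed in every library but Dnmt1. At the 5 of them between 135831732 and 135831774 the levels were 30.2% to 33.3% after Dnmt3a knockdown, 21.6% to 23.5% after Dnmt3b knockdown, 28% to 32% in the double knockdown, 28.4% to 32.1% after Tet1 and Tet2 knockdown and 31.2% to 33.3% in control. Dnmt3b was below control at all 5. At the other 2 it was above control, and the double knockdown was the highest library. The one at 135831562 read 31.7% after Dnmt3a knockdown, 45% after Dnmt3b knockdown, 66.7% in the double knockdown, 28.6% after Tet1 and Tet2 knockdown and 36.8% in control. The one at 135831605 read 42.9%, 34.8%, 61.5%, 27.3% and 22.2% in the same order. Over all 13 cytosines listed in these 5 libraries, the difference from control was 3.28 points for Dnmt3a, -0.0538 for Dnmt3b, 3.19 for the double knockdown and -3.04 for Tet1 and Tet2. On the 6 shared with Dnmt1 it was 4.63, 3.62, -3.68 and -5.38 points, so the direction for Dnmt3b and for the double knockdown depended on which cytosines entered.

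Snrpn averaged 7.37% after Dnmt1 knockdown, 34.4% after Dnmt3a knockdown, 35.4% after Dnmt3b knockdown, 38.1% after the double knockdown, 26.4% after Tet1 and Tet2 knockdown and 37.4% in control over its 3 cytosines. The Dnmt3 knockdowns were all close to control there.

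Mest was the most methylated window in control. Its 2 cytosines averaged 9.1% after Dnmt1 knockdown, 56.35% after Dnmt3a knockdown, 67.5% after Dnmt3b knockdown, 53.85% after the double knockdown, 52.7% after Tet1 and Tet2 knockdown and 83.7% in control. Control stood alone above the other libraries, at 82.6% and 84.8% on the single cytosines. The nearest library, Dnmt3b, read 61.7% and 73.3%. At 83.7% in control, Mest was above the intermediate level described for an intact imprint. Shared cytosines within 20 kb of its window read 92.4% in control. The 2 Mest cytosines lie at 30685294 and 30685330, away from those at 30688332 to 30688358 that the Tet1 and Tet2 library alone listed. Whether these 2 report the imprint was not tested.

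**Figure D1:**
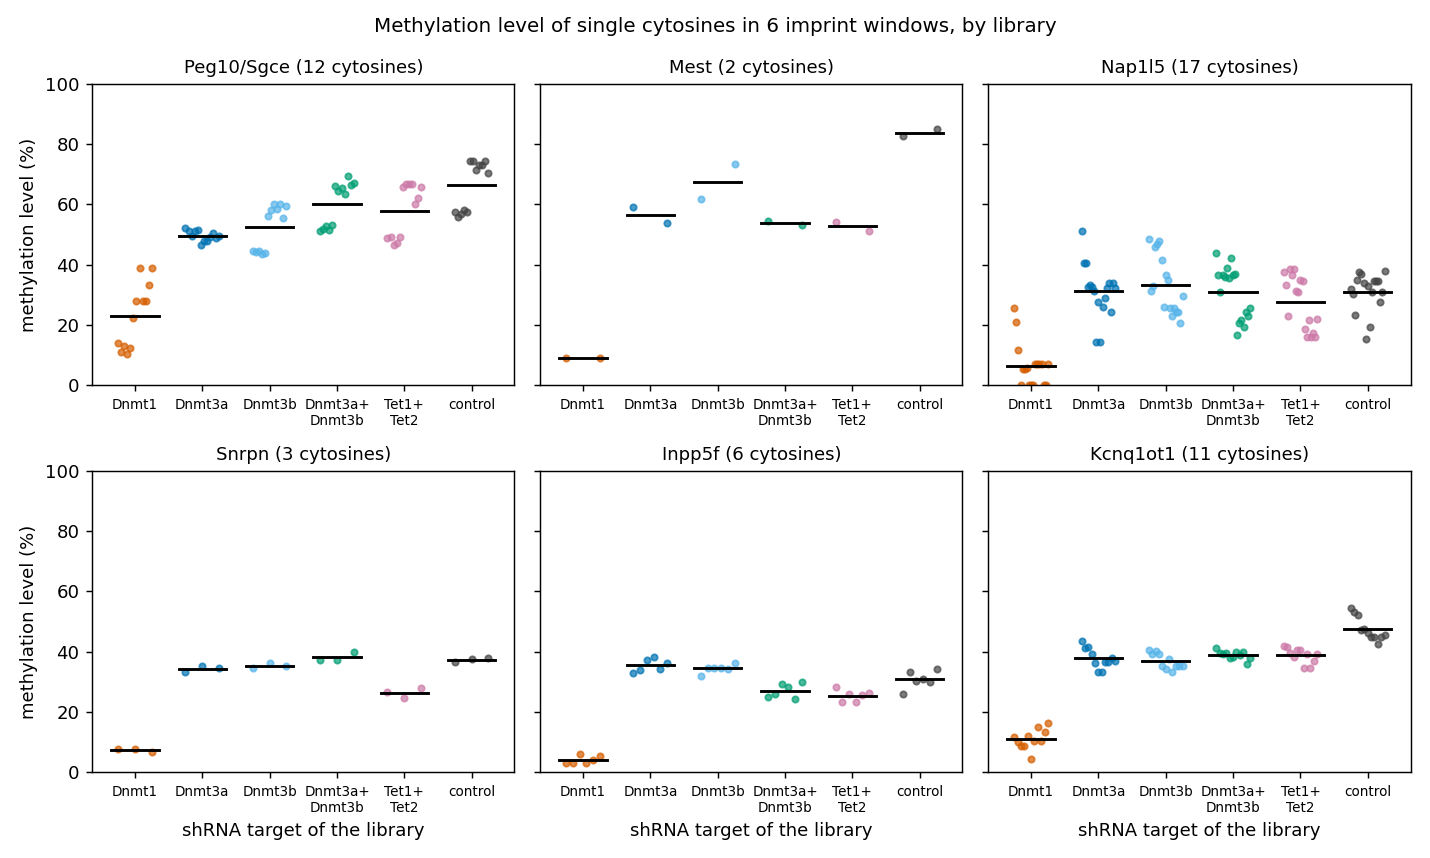
Methylation level (%, vertical axis) of each cytosine listed in all 6 libraries (dots) in 6 imprint windows, by the shRNA target of the library (horizontal axis), with the mean as a black line. The Dnmt1 library was the lowest in every window, at means between 4.13% and 23.1%, and control was the highest at Peg10/Sgce, Mest and Kcnq1ot1.

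The range over the windows was widest in control. Window means ran between 25.4% and 57.9% after Tet1 and Tet2 knockdown, 27.1% and 60.2% in the double knockdown, 31.2% and 56.35% after Dnmt3a knockdown, 33.2% and 67.5% after Dnmt3b knockdown, and 30.8% and 83.7% in control. Mest and Peg10/Sgce were the upper pair in each of these 5 libraries, with Peg10/Sgce the higher of them in the double knockdown and after Tet1 and Tet2 knockdown. After Dnmt1 knockdown Peg10/Sgce was the highest and Mest stood below Kcnq1ot1. Nap1l5 and Inpp5f, the lowest in control, did not differ there beyond the spread over their cytosines.

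The spread of levels within a window was set beside that of other sequence. For comparison, autosomal cytosines listed in all 6 libraries and at most 100 bp apart were joined into 22524 clusters of at least 5. Of these, 2956 were intermediate, with a median over the 6 libraries between 20% and 80%, and 4 of them were the Peg10/Sgce, Nap1l5, Inpp5f and Kcnq1ot1 blocks themselves. The knockdown libraries enter that median, so a cluster above 80% in control could be intermediate through lower knockdown levels. Differences of intermediate clusters from control, given below, thus depend in part on how the clusters were chosen. The SD over the cytosines of an intermediate cluster had a median of 11.2 points in control, with quartiles of 8.13 and 15.1. Inpp5f, at 2.91 points, had a larger SD than 0.947% of these clusters. Kcnq1ot1 (3.90 points) exceeded 2.37% of them, Nap1l5 (6.36 points) 12.6% and Peg10/Sgce (8.24 points) 25.8%. All 4 thus lay below the median SD in control. In the Dnmt1 library, where the median was 5.15 points with an upper quartile of 7.71, Peg10/Sgce (10.8 points) and Nap1l5 (7.32) lay above the median, and Kcnq1ot1 (3.25) and Inpp5f (1.39) below it. The Inpp5f cytosines are all on 1 strand, and the part of strand in these SDs was not tested.

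**Figure D2:**
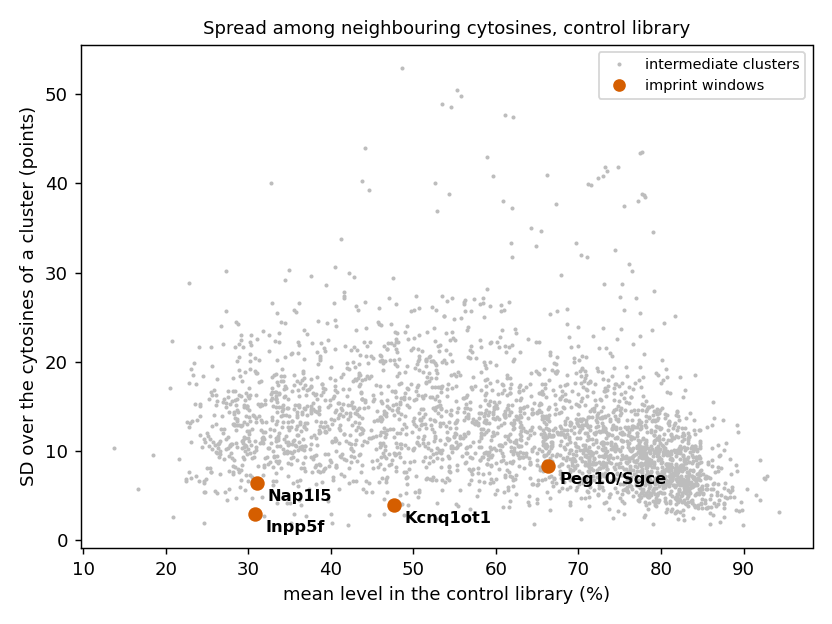
SD over the cytosines of a cluster (percentage points, vertical axis) against its mean level (%, horizontal axis) in the control library, for 2956 intermediate clusters (grey) and the 4 imprint windows with at least 5 shared cytosines (orange). Inpp5f and Kcnq1ot1 lay near the lower edge, at SDs of 2.91 and 3.90 points, against a median of 11.2 points.

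The sequence around 3 windows was highly methylated where it was read, outside the Dnmt1 library. Within 20 kb, shared cytosines were found beyond one side of Peg10/Sgce (12), Mest (6) and Peg3 (3). The Peg10/Sgce flank read 16.9% after Dnmt1 knockdown, 88.1% after Dnmt3a knockdown, 88.65% after Dnmt3b knockdown, 78.6% after the double knockdown, 94.2% after Tet1 and Tet2 knockdown and 88.55% in control. The Mest flank read 20.2%, 84.7%, 92.4%, 84.4%, 89.0% and 92.4% in the same order, and the Peg3 flank 9.33%, 81.5%, 86.9%, 79.9%, 87.9% and 87.7%. In control 20 of these 21 cytosines were above 80% and 1 was between 20% and 80%. Dnmt1 was again the lowest in each.

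After knockdown of Dnmt1, the maintenance enzyme, every shared cytosine of the DMRs read below control. Of the 51, 46 did so by 20 percentage points or more. The means of 99.9% of intermediate clusters were below control. A window or cluster was called lower where its mean was 20 points or more below control and 80% or more of its cytosines were below; all 6 windows were. By the same rule 22.9% of all clusters and 96.2% of intermediate clusters were lower, and 31.8% of single autosomal cytosines were lower by 20 points. A count of 6 of 6 is thus near what intermediate sequence showed in general. Mest and Snrpn hold fewer cytosines than the 5 required of a cluster, here and for the other knockdowns. The differences were -74.6 points at Mest, -43.2 at Peg10/Sgce, -36.6 at Kcnq1ot1, -30.03 at Snrpn, -26.7 at Inpp5f and -24.6 at Nap1l5. Their median was -33.3 points, against -51.6 points for intermediate clusters, which started from a mean of 60.7% in control.

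Relative to control, the DMRs kept about as much methylation after Dnmt1 knockdown as other intermediate sequence. Mest kept 10.9% of its control level, Inpp5f 13.4%, Snrpn 19.7%, Nap1l5 20.8%, Kcnq1ot1 23.1% and Peg10/Sgce 34.9%. Intermediate clusters kept a median of 17.2%, with quartiles of 13.0% and 22.7%. Peg10/Sgce and Kcnq1ot1 stood above the upper quartile, Mest stood below the lower one, and the other 3 lay between the quartiles. At Peg10/Sgce the minus strand end read 31.0% against 72.9% in control, and the plus strand end 12.2% against 57.1%, so the minus strand end kept more.

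**Figure D3:**
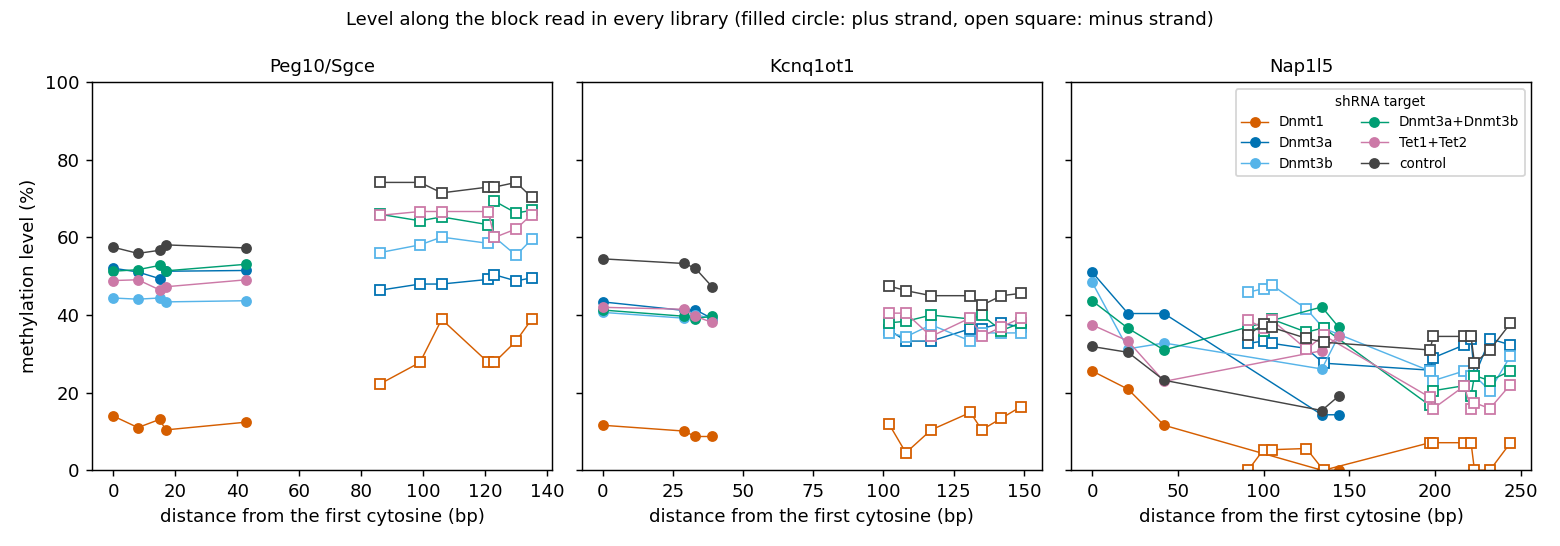
Methylation level (%, vertical axis) against the distance from the first cytosine (bp, horizontal axis) for the blocks of Peg10/Sgce, Kcnq1ot1 and Nap1l5, with plus strand cytosines as filled circles and minus strand ones as open squares, coloured by shRNA target. The plus and minus ends of the Peg10/Sgce fragment lay apart in control (57.1% and 72.9%) and close together after Dnmt3a knockdown (51.1% and 48.6%).

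Knockdown of Dnmt3a, a de novo enzyme, gave unequal differences across the DMRs. Mest differed from control by -27.35 points, Peg10/Sgce by -16.7 and Kcnq1ot1 by -9.85. Snrpn (-3.03), Nap1l5 (0.124) and Inpp5f (4.63) were near control or above it. Only Mest, with 2 cytosines, passed 20 points, and 9 of the 51 cytosines did: both at Mest and 7 at Peg10/Sgce, on its minus strand. Over the genome 3.36% of clusters, 24.7% of intermediate clusters and 5.85% of single cytosines were lower. The window median was -6.44 points, against -15.3 points for intermediate clusters. Of intermediate clusters, 99.8% had a difference below that of Inpp5f and 99.1% one below that of Nap1l5. For Kcnq1ot1 the share was 80.9% and for Peg10/Sgce 41.5%. These clusters started from a mean of 60.7% in control, so points are not like for like. Relative to control, Mest kept 67.3%, Peg10/Sgce 74.8% and Kcnq1ot1 79.3%, between the cluster quartiles of 60.2% and 83.2%. Snrpn (91.9%), Nap1l5 (100.4%) and Inpp5f (115%) lay above the upper quartile.

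After Dnmt3b knockdown no window passed 20 points, while 0.0222% of clusters and 0.169% of intermediate clusters did. Of single cytosines, 1 of 51 was lower by 20 points, against 0.463% over the autosomes, low sequence included. Mest (-16.2 points), Peg10/Sgce (-14.0) and Kcnq1ot1 (-10.7) were below control. Snrpn (-2.03), Nap1l5 (2.22) and Inpp5f (3.62 on its 6 shared cytosines) were nearer to it. Intermediate clusters had a median of 1.64 points, and 0.947% of them had a difference below that of Peg10/Sgce and 2.27% one below that of Kcnq1ot1.

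The double knockdown of Dnmt3a and Dnmt3b left the DMRs other than Mest within 10 points of control. Mest differed from control by -29.85 points and passed the rule, where 1.29% of clusters and 9.4% of intermediate clusters did. The others were Kcnq1ot1 (-8.63), Peg10/Sgce (-6.18), Inpp5f (-3.68, or 3.19 over its 13 cytosines), Nap1l5 (-0.124) and Snrpn (0.70). Of single cytosines, 2 of 51, both at Mest, were lower by 20 points, against 3.44% over the autosomes, low sequence included. At Nap1l5, 1 (58856762) was higher, at 42.1% against 15.4% in control, the lowest control level of that window. The autosomal share of single cytosines higher by 20 points was not counted. The window median was -4.93 points, against -10.9 points for intermediate clusters. Relative to control, the windows kept a median of 89.4%. Intermediate clusters kept a median of 82.1%, with quartiles of 70.3% and 89.9%. Set directly against Dnmt3a alone, the double knockdown was higher at Peg10/Sgce by 10.5 points, at Snrpn by 3.73 and at Kcnq1ot1 by 1.23. It was lower at Inpp5f (-8.32), Mest (-2.50) and Nap1l5 (-0.247).

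These comparisons share the control library, which was the highest at Mest, Peg10/Sgce and Kcnq1ot1. With the Dnmt3b library in its place, an alternative added after the data were seen, the window median was -1.55 points for Dnmt3a and -0.111 points for the double knockdown. Intermediate clusters then had medians of -16.9 and -12.2 points, and 98.4% of them were below Dnmt3b in the Dnmt3a library. Of the windows, 4 of 6 were below Dnmt3b in the Dnmt3a library and 3 of 6 in the double knockdown. Dnmt3a minus Dnmt3b was -11.2 points at Mest, -2.67 at Peg10/Sgce, -2.09 at Nap1l5, -1.0 at Snrpn, 0.891 at Kcnq1ot1 and 1.02 at Inpp5f.

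**Figure D4:**
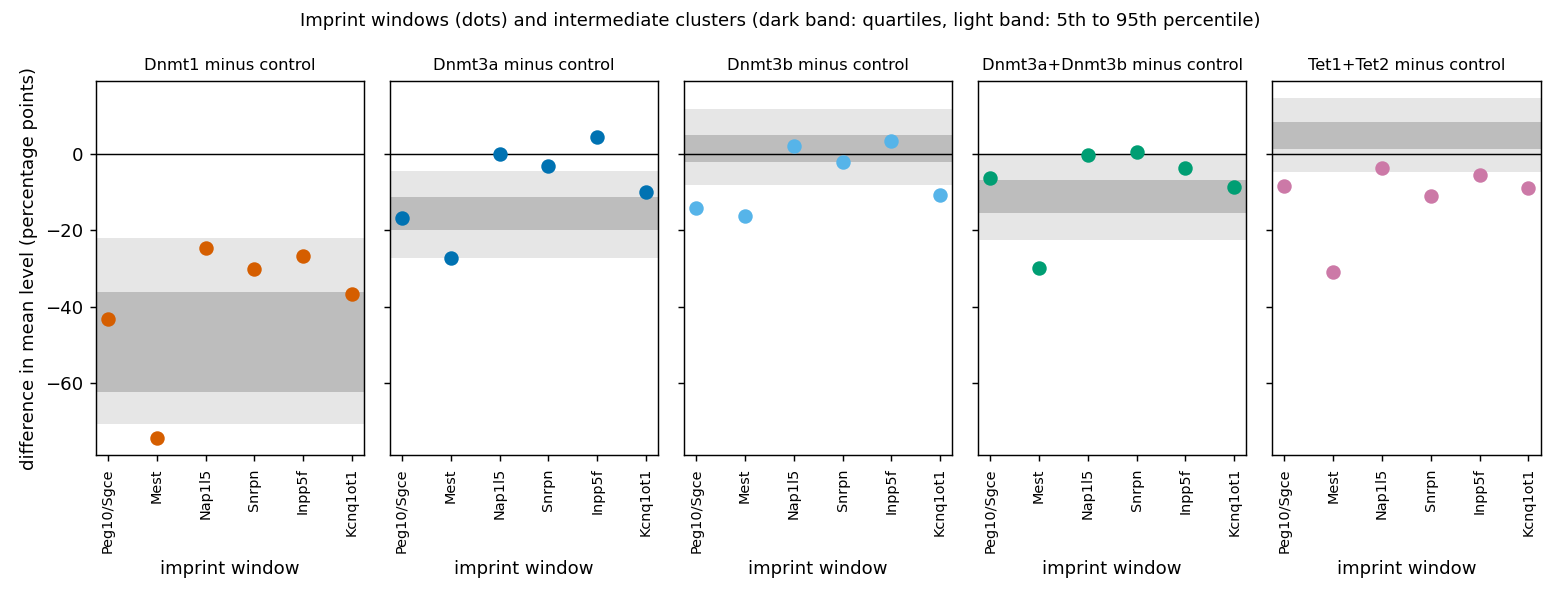
Difference in mean level from control (percentage points, vertical axis) for 6 imprint windows (dots, horizontal axis) in each knockdown, over the quartiles (dark band) and the 5th to 95th percentile (light band) of 2956 intermediate clusters. After Dnmt3a knockdown Nap1l5, Snrpn and Inpp5f lay above the light band, and after Tet1 and Tet2 knockdown all windows except Nap1l5 lay below it. Clusters have at least 5 cytosines, while Mest has 2 and Snrpn 3.

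Knockdown of Tet1 and Tet2, which oxidise 5-methylcytosine, read below control in all 6 windows over the shared cytosines. With the cytosines that each library itself listed, Inpp5f read above control instead, by 0.534 points. The differences were -31.0 points at Mest, -11.03 at Snrpn, -8.85 at Kcnq1ot1, -8.43 at Peg10/Sgce, -5.38 at Inpp5f and -3.57 at Nap1l5, with a median of -8.64. Intermediate clusters had a median of 4.89 points, and 18.0% of them were below control. Only Mest passed 20 points, where 0.0178% of clusters and 0.135% of intermediate clusters were lower by that rule. Another 1.35% of intermediate clusters were higher, and no window was. Of single cytosines, 2 of 51 were lower by 20 points, against 0.357% over the autosomes, low sequence included. By any amount, 43 of 51 were below control. The autosomal share of single cytosines below control by any amount was not counted. Of intermediate clusters, 1.39% had a difference below that of Kcnq1ot1, 1.49% one below that of Peg10/Sgce, 3.62% one below that of Inpp5f and 6.63% one below that of Nap1l5.

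Part of that pattern depended on the library it was set against. Against Dnmt3b, the Tet1 and Tet2 library was lower at Mest (-14.8 points), Snrpn (-9.00), Inpp5f (-9.00) and Nap1l5 (-5.79), and higher at Peg10/Sgce (5.58) and Kcnq1ot1 (1.90). The window median was then -7.39 points, against 3.08 points for intermediate clusters, of which 29.2% were below Dnmt3b. At Snrpn and Inpp5f it was lower than Dnmt3b at every shared cytosine, all of the minus strand. Of the 7 Inpp5f plus strand cytosines given above, it was higher than Dnmt3b at 5 and lower at 2.

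Cytosines that only some libraries listed extend the windows but allow few comparisons. At Snrpn 6 further minus strand cytosines read between 7.1% and 28.6% after Dnmt3b knockdown, between 28.6% and 38.5% in the double knockdown and between 26.7% and 33.3% after Tet1 and Tet2 knockdown. At Inpp5f the Tet1 and Tet2 library alone listed 8 minus strand cytosines at 50% to 60%, next to the shared block at 25.4%, and 3 beyond its other end at 0% to 10%. At Mest that library listed 3 more, at 63.6%, 27.3% and 45.5%. At Peg10/Sgce it listed 2 more, about 2 kb from the shared block, both at 0%. These values carry no error and enter only the means over each library's own cytosines. There the Snrpn difference from control was -10.5 points for Dnmt3b, against -2.03 on the shared cytosines, because the 6 further cytosines enter.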

How the data were processed

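The data are RRBS methylation levels of 6 libraries of E14 mouse embryonic stem cells, 1 per group. Per the labels' protocols, MspI-digested DNA went into TruSeq libraries, was converted with an EpiTect kit and read on a HiScanSQ. CASAVA 1.8, Bismark 0.10.1 and mm9 are named in the submitters' processing notes, without roles. The sources used here do not give a coverage minimum or the handling of duplicate reads. The deposited values are methylation fractions (0 to 1), rounded by the authors, for single CpG cytosines on 1 strand with 5 bases of context. They come without counts, so depth is unknown, no interval can be given, and the planned Fisher's exact test and coverage minimum were not run. The Dnmt1 library was grouped by its treatment label, since its title names Dnmt1a.

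Fractions were turned into percent and joined by cytosine and its context in pandas 2.3.3 (Python 3.11.15, NumPy 2.4.6), and matplotlib 3.10.9 drew the plots. Window means used cytosines listed in all 6 libraries. With 1 library per group there was no test between conditions. The cluster rule was checked on simulated data. All 7 windows are named in the text, and single cytosines where they lie on a printed sequence or have the largest difference of a window; other single cytosines were chosen after their values were seen. No mm9 annotation was used, so positions are not assigned to exons or introns. The windows, members and lists were chosen with earlier results of these data known. Alternatives were other sets of cytosines, single strands, medians, the middle of each window, leaving out MspI sites, and other thresholds, cluster minimums and gaps.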

Additional observations from a re-analysis of the deposited data

How the results depend on the processing

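No replicate could be left out and no paired analysis was possible because each group has 1 library. With neither replicates nor counts, a level or difference was taken to have moved if it shifted by at least the SD over the cytosines of its window (1 point at the least). Of 252 alternative levels 20 moved, and of 283 alternative differences 49 moved. No window past 20 points changed sign. Part of these alternatives could not move, because they held the same cytosines as the main setting. The shared cytosines of each window formed a single block, so weighing blocks alike changed nothing. The same held for the only strand read at Mest, Snrpn and Inpp5f. The counts are therefore no measure of robustness. The median difference over the windows was held to 2.54 points.

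On the plus strand alone, where 4 windows have cytosines, the median was -43.5 points for Dnmt1, -12.6 for Dnmt3b and -8.45 for the double knockdown. On the minus strand alone it was -30.03 for Dnmt1, -3.19 for Dnmt3a and -2.03 for Dnmt3b. With each library's own cytosines it was -10.6 for Dnmt3b. Against the Dnmt3b library it was -28.6 for Dnmt1, -1.55 for Dnmt3a and -0.111 for the double knockdown.

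Windows lower by 20 points after Dnmt1 knockdown numbered 6, and 3 of 4 on the plus strand alone. The single call for Dnmt3a, for the double knockdown and for Tet1 and Tet2 was Mest. It was lost (0 windows) in the middle of the windows, which holds no shared Mest cytosine, in windows with at least 5 cytosines and against the Dnmt3b library, the last 2 chosen after the data were seen. On the minus strand, which has no Mest cytosine, the count was 0 for the double knockdown and for Tet1 and Tet2, while Dnmt3a kept 1 call, at Peg10/Sgce. Medians over cytosines gave 2 for Dnmt3a. At 10 points the counts were 2 for Dnmt3a, 3 for Dnmt3b and 2 for Tet1 and Tet2. At 30 points they were 0 for Dnmt3a and for the double knockdown.

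Intermediate clusters lower by 20 points made up 5.28% in the double knockdown with at least 10 cytosines per cluster. For Dnmt3b and for Tet1 and Tet2 they made up 0.400% and 0.212% with at least 3 cytosines, 0% and 0% with at least 10, and 0.0876% and 0.0292% with gaps of up to 300 bp. The cause of these shifts was not tested where none is given. Limits are the unknown depth, the single library per group and the 2 or 3 cytosines at Mest and Snrpn.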

Other observations

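Intermediate clusters of the same chromosomes, with the imprint blocks among them, had mean levels near those of all 2956 intermediate clusters. The 117 intermediate clusters of chromosome 6 averaged 12% after Dnmt1 knockdown, 44.2% after Dnmt3a knockdown, 61.2% after Dnmt3b knockdown, 50.7% in the double knockdown, 64.6% after Tet1 and Tet2 knockdown and 60.5% in control. The 241 of chromosome 7 averaged 10.5%, 43.2%, 59.6%, 47.2%, 63.3% and 58.8% in the same order. On both chromosomes Tet1 and Tet2 was the highest of the 6 libraries, and Dnmt3a was the next lowest after Dnmt1.

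At 3 CpGs of the windows both strands were listed in some libraries. At the Nap1l5 CpG at 58856762 the plus and minus strands read 0% and 0% after Dnmt1 knockdown, 14.3% and 27.6% after Dnmt3a knockdown, 26.1% and 36.6% after Dnmt3b knockdown, 42.1% and 36.7% with both Dnmt3 genes targeted, 30.8% and 34.8% after Tet1 and Tet2 knockdown and 15.4% and 33% in control. At the Inpp5f CpG at 135831732 they read 32.3% and 38.1% after Dnmt3a knockdown, 23.5% and 34.7% after Dnmt3b knockdown, 29.2% and 28.2% with both Dnmt3 genes targeted, 31.2% and 23.3% after Tet1 and Tet2 knockdown and 31.9% and 30.9% in control. At the Nap1l5 CpG at 58856628 the plus strand stood above the minus strand in the Dnmt1 (25.6% and 0%), Dnmt3b (48.5% and 20%) and double knockdown (43.7% and 15.4%) libraries. In the Tet1 and Tet2 library both strands read 37.5% there.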
